A study of Rattus norvegicus with 3 samples.

Results

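Muscle sarcomere genes were read here in RNA labelled as rat adrenal medulla after a stay in the cold. The group holds 8 genes of 14217 named on the array by a single symbol. They are Mybpc1 and Myl1 of the thick filament, Acta1, Tnnt3, Tnni2 and Tnnc1 of the thin filament, Ckm of muscle energy supply and Des of the intermediate filaments. Every probe set annotated to one of these genes alone was taken, which gave 9 probe sets, 2 of them for Tnnt3. The genes were selected on their intensities on these same 3 arrays, so their levels and differences are given as a description and carry no test.

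RNA was measured on 3 one-colour oligonucleotide arrays, 1 array per sample. Rats had been exposed to cold for 1 day (replicates a and b, called D1a and D1b below) or for 7 days (a single array, D7), so cold exposure is shared by every group. The labels give no strain, age or sex, and no sample from rats outside the cold was analysed here. They put the words "Multiple Organs" ahead of the tissue without saying what those refer to. Whether D1a and D1b stem from different animals is not stated. Their spread may then be technical, and so few arrays leave every value imprecise.

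The sarcomere is the repeating unit of striated muscle, in which myosin thick filaments slide along actin thin filaments. Calcium starts the movement by binding troponin C, and troponin I and troponin T pass that signal along the thin filament. Most of the genes described here are known for skeletal muscle, while desmin is also found in smooth muscle, which the walls of blood vessels contain.

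The tissue label was checked against marker genes. The chromaffin cell genes Th and Dbh, enzymes of catecholamine synthesis, read 193597 and 188289 on D1b, 224786 and 215877 on D7, and 79575 and 543430 on D1a. The adrenal cortex gene Star read 208111 on D1b, 277066 on D7 and 602316 on D1a, so cortex transcripts were present beside those of the medulla. Not every marker was high on D1a: the chromaffin transporter gene Slc18a1 read 1390 there against 18040 on D1b, and the cortex enzyme gene Cyp11b1 2012 against 33603. D1a stood apart in other ways too. Its Spearman correlation across gene probe sets was 0.664 with D1b and 0.684 with D7, against 0.939 between those 2. The 3′ over 5′ signal of the beta-actin controls, a ratio that rises with RNA damage, was 231 on D1a, 6.11 on D1b and 8.87 on D7. Dim probe sets read high on D1a: among those under the brightness filter (a mean log2 level below the median of all gene probe sets, 9.60), the median difference of D1a from D1b was 2.13 on the log2 scale, against 0.07 above it. Member differences are therefore given against each 1-day array on its own. Median centring, an alternative scaling, moves every difference of D7 from D1a by 1.21 and from D1b by -0.18, so directions against D1a depend on the scaling for members with small differences. The part of RNA quality in these results was not tested.

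Promoter sequences are shown for the genes with the lowest and the highest difference between D7 and D1b among those with a sequence entry, Mybpc1, which read lower at 7 days than on D1b, and Tnni2, which read higher. RefSeq promoters (assembly GRCr8, 250 bases before to 50 after the annotated start) were found for 6 of the 8 genes, all but Tnnt3 and Tnnc1. Myl1 had 2 of them, which gave 7 promoters. Capitals mark the E-box, CANNTG, a palindrome read the same on both strands and the binding motif of the muscle regulators MyoD and myogenin. The Mybpc1 promoter lies at chr7:24903324-24903623 on the minus strand and the Tnni2 promoter at chr1:207024240-207024539 on the plus strand, each printed 5′ to 3′.
Mybpc1: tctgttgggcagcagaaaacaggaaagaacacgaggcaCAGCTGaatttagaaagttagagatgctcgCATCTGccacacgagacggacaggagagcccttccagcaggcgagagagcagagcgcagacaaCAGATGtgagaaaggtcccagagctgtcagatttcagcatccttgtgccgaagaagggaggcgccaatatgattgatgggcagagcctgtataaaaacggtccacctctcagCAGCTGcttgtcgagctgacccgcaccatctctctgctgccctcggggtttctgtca
Tnni2: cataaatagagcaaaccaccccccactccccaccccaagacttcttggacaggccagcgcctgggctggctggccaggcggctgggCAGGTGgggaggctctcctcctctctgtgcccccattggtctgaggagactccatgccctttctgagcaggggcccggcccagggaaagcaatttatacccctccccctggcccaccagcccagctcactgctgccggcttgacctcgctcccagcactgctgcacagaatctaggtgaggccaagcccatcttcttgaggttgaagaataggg

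An E-box was found 4 times in the Mybpc1 promoter and 1 time in that of Tnni2. It occurred in 7 of the 7 promoters of these genes and in 72.1% of 33469 rat promoters of the same length, so its presence sets none of them apart. TATAAA, searched on both strands, was in 4 of the 7, Mybpc1 and Tnni2 among them, against 14.2% of all. A CArG box, the motif of serum response factor, was in 1, that of Acta1 (1.64% of all), and a MEF2 box in 1, that of the second Myl1 start (3.29% of all). A match is a stretch of letters and not a bound site, and the start used in the adrenal gland was not measured.

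Among members bright enough to pass the filter, Mybpc1 had the largest difference between D7 and D1b, and D1b was the array on which it stood high. Mybpc1, the slow-type myosin-binding protein C that ties the thick filament together, read 2511 on D1a, 7578 on D1b and 2635 on D7. The D7 value lay between the 1-day values, close to D1a on the deposited scale and well below D1b. On the scale of log2(intensity + 16) D7 differed by -1.52 from D1b, a ratio of 0.349, and by 0.07 from D1a, a ratio of 1.05. The latter became 0.44 after quantile normalisation and 1.28 after median centring. The 1-day arrays themselves were 1.59 apart in absolute terms (D1a minus D1b, -1.59). The difference between 7 days and the mean of 1 day, -0.72, was smaller than the SD of the 1-day pair, 1.12 (n = 2).

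Few probe sets read that much lower on D7 than on D1b. Among the 15521 gene probe sets past the filter, 0.561% were at least 2-fold lower on D7 than on D1b, and 14 had a more negative difference than Mybpc1. It was among the 13 (0.0838%) that read at least 2-fold higher on D1b than on both other arrays. Since Mybpc1 was selected on these same arrays, its rank and these shares describe it and are no test of how unusual it is. As a percentile of all gene probe sets on the same array, Mybpc1 stood at 68.7, 89.3 and 75.2 on D1a, D1b and D7. Mybpc1 is represented by 1 probe set, designed on a GenBank sequence and not on a RefSeq mRNA according to the platform annotation, so no second probe set was there to set against it.

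Myl1, the essential light chain of fast-muscle myosin, read 2269, 581 and 453 on D1a, D1b and D7. It was high on D1a and low on both others, with the D7 value below both 1-day values. D7 differed from D1b by -0.35 and from D1a by -2.29.

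**Figure D1:**
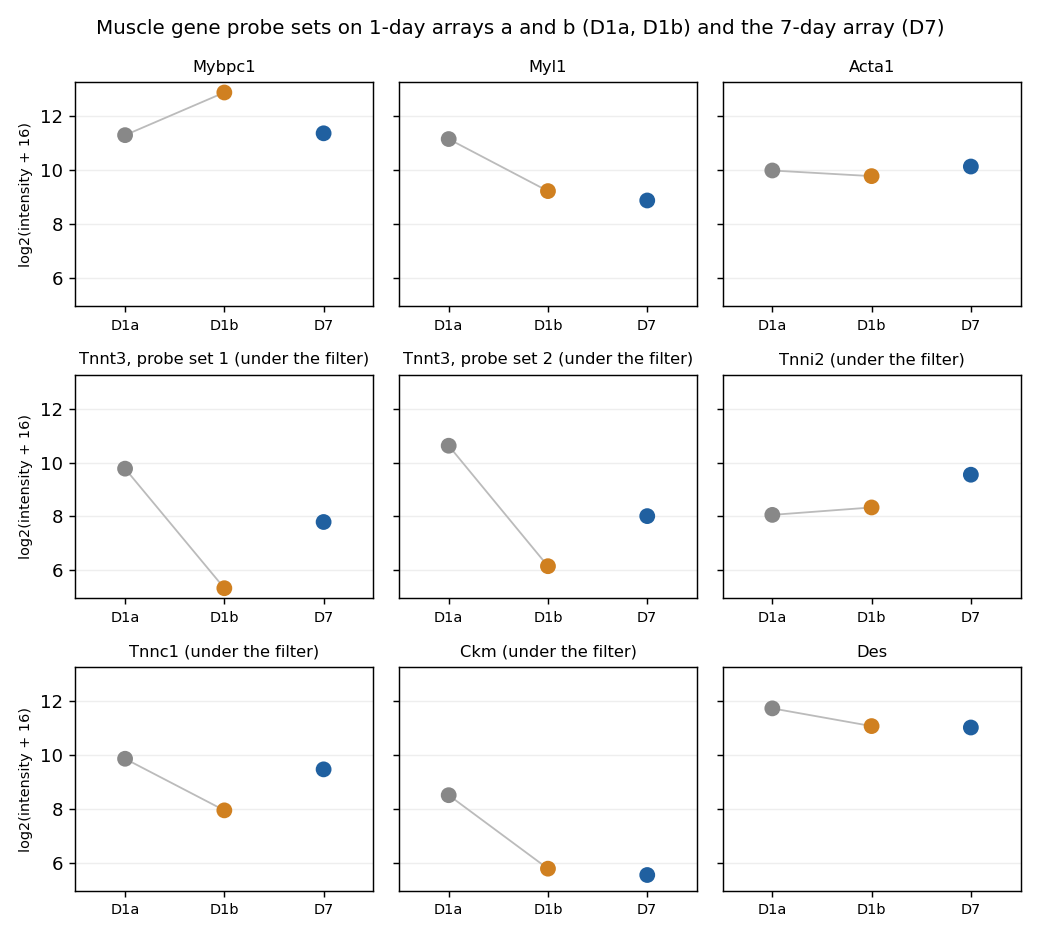
Level of each of the 9 probe sets of the 8 muscle genes, as log2(intensity + 16) on the vertical axis, on D1a (grey), D1b (orange) and D7 (blue), 1 point per array with a grey line joining the 1-day pair. Mybpc1 peaks on D1b, while Myl1, Tnnt3, Tnnc1 and Ckm are highest on D1a and Tnni2 and Acta1 on D7.

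Among the thin filament genes, skeletal alpha-actin was nearly level across the arrays. Acta1 read 1000 on D1a, 862 on D1b and 1109 on D7, above both 1-day values by 0.15 and 0.36 (log2). That was the smallest gap between the 1-day arrays of any of the 9 probe sets, 0.21. Its difference from D1a became 1.33 after quantile normalisation and 1.36 after median centring.

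The fast-muscle troponins read higher on D7 than on D1b. Tnnt3, which encodes fast troponin T, read 862, 24.2 and 206 on D1a, D1b and D7 with its first probe set, and 1569, 54.9 and 242 with its second. Both probe sets gave the same order, with D1a highest, D1b lowest and D7 in between. Against D1b D7 was 2.46 and 1.86 higher on the log2 scale, and against D1a it differed by -1.98 and -2.62. With a pseudocount of 64 in place of 16 the first pair became 1.61 and 1.36, since the values on D1b were small enough for that choice to matter.

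Tnni2, fast troponin I, which holds the thin filament off in resting muscle, read 250, 307 and 735. It was the one member at least 2-fold above both 1-day arrays, by 1.49 against D1a and 1.22 against D1b, and the 1-day pair lay 0.28 apart. Of all gene probe sets 1.25% met the same criterion, and of those under the filter, as Tnni2 was, 2.47%. The difference from D1b fell short of 2-fold, at 0.75, with quantile normalisation. Tnnc1, the calcium-binding troponin C of slow and heart muscle, read 918, 231 and 694, so that the D7 value again lay between the 1-day values, 1.53 above D1b and 0.39 below D1a (log2, -0.39). That order depends on the scaling: the difference from D1a was 0.93 after quantile normalisation and 0.82 after median centring, which put D7 above both.

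Outside the filaments, Ckm, the muscle creatine kinase that buffers ATP, read 349, 38.8 and 30.6 on D1a, D1b and D7. These were among the dimmest values of the group, at percentile 10.9 of D1b and 4.68 of D7, and D7 differed by -0.24 from D1b and by -2.97 from D1a. Des, which encodes desmin, the filament that links neighbouring Z discs, read 3408, 2152 and 2075. D7 differed by -0.05 from D1b and by -0.71 from D1a, and D1a was above both. The difference from D1a was -0.56 after quantile normalisation but turned to 0.50 after median centring.

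Of the 9 probe sets, 4 passed the filter (Mybpc1, Myl1, Acta1 and Des) and 5 did not. Relative to D1b, 0 of the 4 stood at least 2-fold higher on D7 and 1 at least 2-fold lower, where 1.84% and 0.561% of all kept probe sets did. Relative to D1a the counts were 0 and 1, with shares of 19.7% and 23.1% among all kept probe sets. The 1 was Myl1, which passed through its high value on D1a, and passing that way favours a lower reading on D7. Where D1b and D7 alone set the filter, Myl1 was not kept and the count was 0.

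Over all 9, D7 exceeded D1b at least 2-fold in 4 and fell short of it as far in 1, beside 14.9% and 6.64% of all 31042 gene probe sets. The 4 higher ones, Tnnt3 with both probe sets, Tnni2 and Tnnc1, were all under the filter, where 27.9% of probe sets were that much higher. Set against D1a, 1 of the 9 was at least 2-fold higher and 4 were at least 2-fold lower, beside 15.3% and 44.0% of all. The D7 value lay above both 1-day values in 2 of the 9 and below both in 3 (18.8% and 27.6% of all gene probe sets). It lay between them in 4, of which Mybpc1 alone had D1b as the higher 1-day array (15.4% of all).

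Between the 1-day arrays, 5 of the 9 were at least 2-fold higher on D1a and 1, Mybpc1, was at least 2-fold lower there, against 47.1% and 14.9% of all gene probe sets. Among probe sets under the filter, 70.2% were at least 2-fold higher on D1a, as were 4 of the 5 members there. The group thus had no common direction. Limma, run over the 15521 kept probe sets for 7 days against 1 day, called 0 (0%) at an adjusted p under 0.05, with 70 at an unadjusted p under 0.05. That fit has 1 residual degree of freedom, which comes from the 1-day pair. D1a and D1b were further apart (SD of the log2 difference 1.43) than D7 and D1b (0.387), and the fit takes its noise from that wide pair. The lack of calls therefore does not show that no level differed.

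**Figure D2:**
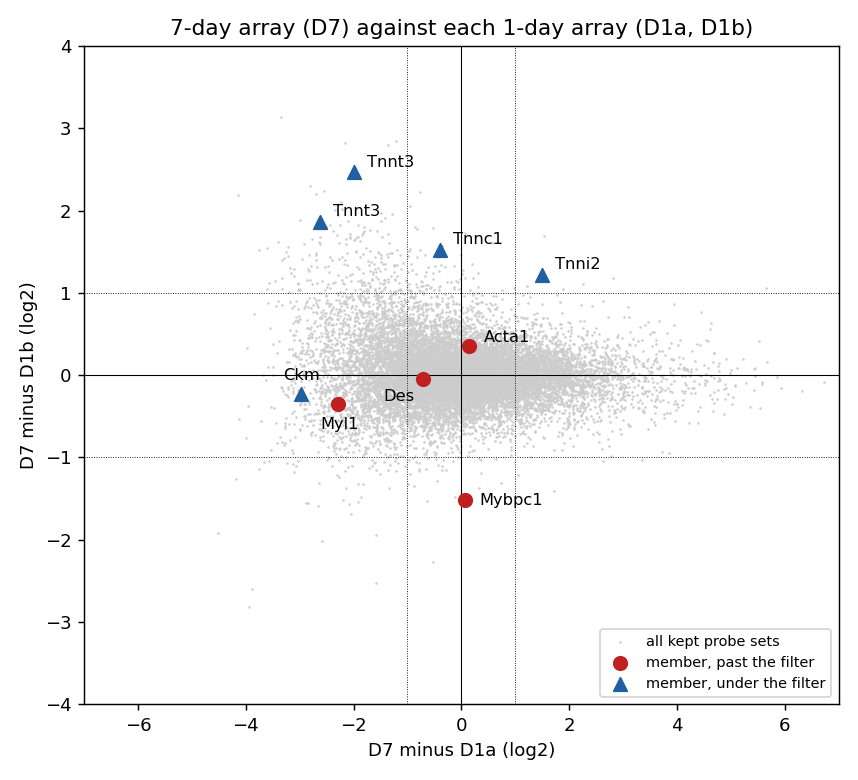
Log2 difference of D7 from D1a (horizontal) and from D1b (vertical) for all 15521 kept probe sets (grey), members past the filter (red circles) and members under it (blue triangles), with dotted lines at 2-fold. Mybpc1 lies at 0.07 and -1.52, in the lower fringe of the grey points, while Tnnt3, Tnnc1 and Tnni2 lie above the upper dotted line.

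Whether other muscle genes followed Mybpc1 was asked of 64 further genes on 6 lists (thick filament, thin filament, Z disc and titin, calcium handling, muscle energy and muscle transcription factors). Of these, 59 had a named probe set and 16 had one past the filter, each gene being read from its brightest probe set. The pattern of Mybpc1, a D7 value above D1a and below D1b, was shown by 4 of the 16, beside 26.5% of all 9292 kept genes. These were Tpm1 and Tmod1 of the thin filament and Cox8b and Pfkm of energy metabolism, whose differences from D1b were -0.48, -0.31, -0.07 and -0.10. None of those 4 differences reached 2-fold. The calls rest on 1 probe set a gene, and other probe sets could differ. On the other kept probe sets of Tpm1, D7 read below both 1-day arrays. Mef2c and Tpm3 were counted as not following, yet some of their other kept probe sets showed the pattern, such as Mef2c at 489, 1474 and 874. With the probe sets of a gene averaged the count was 3 of 16, without a share over all genes to set beside it. The count was 3 of 16 after quantile normalisation, beside 26.7% of kept genes, and 6 of 16 after median centring, beside 66.8%. Of the other 7 genes in the group, 0 showed the pattern, beside 19.6% of all 14217 genes. Tnnt3, Tnni2, Tnnc1 and Ckm were under the filter, where the pattern was rarer: of 2780 genes with it, 2461 were past the filter. A count of 0 among so few genes therefore says little.

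The lists as a whole did not share the lower level of Mybpc1 at 7 days against D1b. The median difference of the 16 genes from D1b was 0.09, beside -0.01 over all kept genes. Of the 16, 10 were higher and 6 lower, beside 4517 higher and 4775 lower of the 9292 kept genes. At least 2-fold, 1 was higher and 0 were lower, against 0.926% and 0.430% of kept genes. From D1a the median was -0.99, beside 0.04 over all kept genes. Some of the 16, such as Trdn and Ldb3, passed through a high value on D1a, which by itself favours a lower reading on D7. Under the filter on D1b and D7, 14 genes were kept, 0 of them at least 2-fold higher than on D1b, with medians of 0.09 from D1b and -0.57 from D1a, beside -0.01 and 0.13 over the 9366 genes kept that way.

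The highest of the 16 against D1b was Trdn, which encodes triadin of the calcium release complex. It read 5047, 192 and 444 on D1a, D1b and D7, a difference of 1.14 from D1b and -3.46 from D1a, and it passed the filter through D1a. Actn2, the alpha-actinin of Z discs, read 1142, 3018 and 4684, above both 1-day arrays by 2.02 and 0.63. Srl, sarcalumenin of the sarcoplasmic reticulum, stood 0.43 above D1b and differed by -1.61 from D1a.

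Myosin heavy chain Myh1 was also 0.43 above D1b, at 144760, 47747 and 64328. Its 5 probe sets all read higher on D7 than on D1b, by 0.30 to 0.85. Against D1a they disagreed, from -1.17 to 0.06. Other fast heavy chains were dim, with Myh4 at 695, 25.1 and 29.6 and Myh2 at 43.8, 143 and 203, both under the filter. Whether the probe sets of Myh1 share signal with those near-identical relatives was not tested, and its level is uncertain.

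The lowest of the 16 against D1b were the tropomyosin gene Tpm2 at -0.68, Tpm1 at -0.48 and the thin filament cap gene Tmod1 at -0.31. Tpm2 read 15648, 10783 and 6732, below both 1-day arrays. Its second probe set, under the filter, was opposed at 0.82, and the 7 probe sets of Tpm1 ranged from -1.06 to 1.93. Tropomyosins are made in many cell types in different splice forms, and each probe set sees some of them.

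Among all 59 measured genes, filter aside, 7 were at least 2-fold beyond both 1-day arrays, 1 above and 6 below, beside 0.774% and 4.08% of all 14217 genes. The 1 above was Actn3, the fast-fibre alpha-actinin, at 104, 37.0 and 264. The 6 below were Mybph (169, 168 and 22.2), Myom1, Ttn, Pvalb, Jph1 and Myod1 (122, 143 and 9.95), whose differences from D1b ran from -2.61 to -1.09. Mybph encodes another thick filament binding protein and Myod1 a master regulator of muscle differentiation. All 7 were under the filter, as were most genes counted over the whole array. Of 110 genes that far above both and 580 below both, 3 and 21 were past the filter. The shares over all genes are therefore not those of equally dim genes. Relative to D1b, D7 was at least 2-fold higher in 16 of the 59 and that far lower in 6 (10.1% and 4.76% of all genes). Of those, 15 and 6 were among the 43 under the filter, where 27.5% of all genes were that far higher and 12.9% that far lower.

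**Figure D3:**
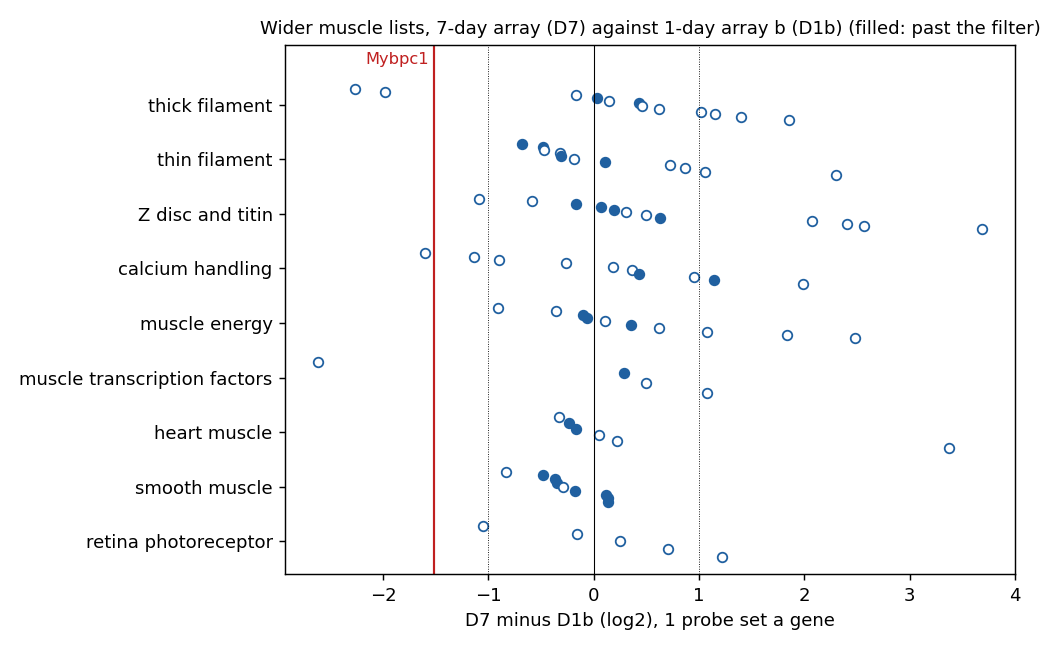
Log2 difference of D7 from D1b (horizontal) for each measured gene of 9 lists (rows), 1 probe set a gene, filled where it passed the filter and open where it did not; the red line is Mybpc1 at -1.52 and dotted lines mark 2-fold. No filled point reaches the red line, and the points furthest out on either side are open.

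Tissues that could bring such transcripts were read from marker lists. Smooth muscle had 9 of 9 markers measured and 7 past the filter, and its summed intensity was 25072 on D1a, 44242 on D1b and 36504 on D7. Tagln made up much of these sums, which were 19166, 20230 and 17640 without it. Acta2 and Myh11, smooth muscle actin and myosin, differed from D1b by -0.17 and 0.13 and from D1a by 0.88 and -0.13. The median of the 7 was -0.17 from D1b, beside -0.05 for Des and -1.52 for Mybpc1, and the median difference of D1a from D1b was 0.26. Of the 7, 3 (Acta2, Tagln and Mylk) had a D7 value above D1a and below D1b, as Mybpc1 did, beside 26.5% of all kept genes.

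Heart muscle had 6 of 6 markers measured and 2 past the filter, with sums of 7448, 2867 and 2822. Myh6 read 1134, 17.9 and 335, and Tnnt2 1972, 921 and 779. Retinal photoreceptor genes, from a tissue the sample should lack, had 5 of 6 measured, 0 past the filter, sums of 3226, 900 and 656, and a span of 13.6 to 532 on D1b and 36.2 to 259 on D7. Gnat1 and Pde6b, of rod phototransduction, differed from D1b by -1.05 and 0.71. Intensities of different probe sets have no common scale, so the span is given for its size and not as a limit of detection.

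Fat cells had 7 of 7 markers measured and 2 past the filter, Cfd at 2195, 2976 and 2529 and Cidea at 6291, 15428 and 18241. Adipoq and Fabp4 were under it, at 1450, 274 and 409 and at 95.8, 555 and 65.3. The fibroblast genes Col1a1 and Col3a1 differed from D1b by -0.47 and -0.42 and from D1a by -0.10 and 2.58. All 5 markers of that list, with Lum under the filter, were lower on D7 than on D1b, as were 6552 of all 14217 genes. Against D1a, Col3a1 and Dcn (2.31) were higher on D7 and the others lower. The endothelial genes Pecam1 and Kdr differed by 0.21 and 0.04 from D1b and by -1.36 and 0.24 from D1a, and the cortex genes Cyp11b1 and Star by 0.57 and 0.41 from D1b and by 4.62 and -1.12 from D1a. The part of any of these cell types in the muscle gene values was not tested. In whole tissue, fewer cells of a type and less RNA per cell cannot be told apart.

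The genes most like Mybpc1 were found by the Euclidean distance between their log2 values on the 3 arrays, each gene first centred on its own mean, over 9291 kept genes. The nearest 5 were Icam1 (distance 0.18), Simc1 (0.25), Kcnab2 (0.34), Zfp207 (0.36) and Lrrn2 (0.41). Icam1, an adhesion molecule of endothelium and white blood cells, read 1298, 4250 and 1626, the same order as Mybpc1. No muscle list gene or other member was among the nearest 5, and of the 19 that could be ranked the closest was Tmod1, at rank 407 and distance 0.90. With 3 arrays a distance rests on 2 independent differences, and 10 genes lay within 0.5 of Mybpc1.

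**Figure D4:**
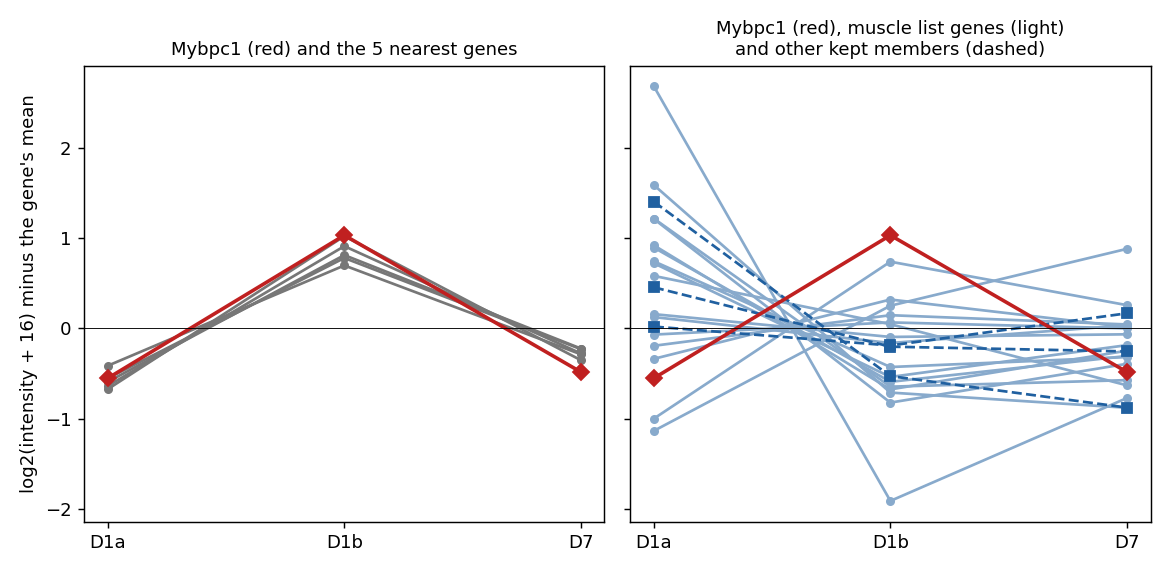
Levels on D1a, D1b and D7 as log2(intensity + 16) minus the gene's own mean, with lines linking the values of 1 gene; left, Mybpc1 (red) and its 5 nearest genes (grey); right, Mybpc1 with the 16 kept muscle list genes (light blue) and Myl1, Acta1 and Des (dashed). The nearest genes, chosen for closeness to Mybpc1, peak on D1b as it does. Most muscle list genes are highest on D1a on the deposited scale. That depends on the scaling, since median centring shifts D1a minus D1b by -1.39 and D7 minus D1a by 1.21.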

How the data were processed

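The deposited table gives a linear intensity for each probe set on each array, which the authors had summarised and scaled beforehand. Neither program nor settings are given in the sources used here. Trimmed means (2% cut at each end) came to 2501 on all 3 arrays, which points to scaling of the arrays to 1 target; such scaling hides differences in total signal.

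Intensities were analysed as log2(intensity + 16), a pseudocount that understates changes of dim probe sets. After removal of 57 control probe sets, 31042 gene probe sets were left, and 15521 with a mean log2 level not below the median (9.60, or 759 as intensity) passed the filter. Symbols were taken from the platform annotation (20826 probe sets carry 1 symbol, 436 several and 9780 none) and updated for 20758 by Entrez identifier in the GRCr8 RefSeq table, which served for names. Titles of the samples gave the groups.

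The members and lists were chosen with earlier results of these data known. Named genes were all members, list genes at least 2-fold beyond both 1-day arrays, the 3 highest and 3 lowest list genes past the filter against D1b, the 5 genes nearest to Mybpc1 and the first 2 markers of a list. Others were chosen after their values were seen. Limma (lmFit, then eBayes with a trend, two-sided, Benjamini-Hochberg at 0.05) was run on all 15521. It was checked on simulated arrays whose noise was taken from the spread between D1b and D7. The 1-day pair was further apart, with an SD of the log2 difference of 1.43 against 0.387. That check therefore does not show what the fit could call in these data. Versions were R 4.3.3, limma 3.58.1, Python 3.11.15 and matplotlib 3.10.9.

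Alternatives were pseudocounts of 1 and 64, quantile normalisation, median centring, other filters (none, or the 75th percentile), averaging the probe sets of a gene, eBayes without trend or with robust = TRUE, and omission of D1a or D1b. A filter on D1b and D7 alone, percentiles within an array and a smooth muscle sum without Tagln were added after the data were seen.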

Additional observations from a re-analysis of the deposited data

How the results depend on the processing

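The difference of Mybpc1 between D7 and D1b ran from -1.70 to -1.30 over both other pseudocounts, quantile normalisation and median centring. Its difference from D1a became 1.28 with median centring. Against the mean of 1 day (-0.72) it was -1.52 without D1a and 0.07 without D1b. Member counts at least 2-fold higher on D7 than on D1a went from 0 to 1 with quantile normalisation, 2 with median centring and 1 with no filter. Those scalings moved the median difference from D1a over all gene probe sets by 0.66 and 1.21. The share of all probe sets past 2-fold was not counted under them, so the counts say little about the members. With no filter the share of all gene probe sets was 15.3%. Then 4 member probe sets were at least 2-fold higher than on D1b and 4 at least 2-fold lower than on D1a, beside 14.9% and 44.0% of all. That last count went from 1 to 0 with the 75th percentile filter and with the filter on D1b and D7, where Myl1 is no longer kept.

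List genes with the pattern of Mybpc1 numbered 3 to 6, against 4, over changing sets. The count was 4 of 59 with no filter (19.6% of all genes) and 4 of 9 with the 75th percentile filter (32.9%). The filter on D1b and D7 gave 4 of 14, beside 2620 of the 9366 genes kept that way. Without D1a the pattern asks only for a D7 value below D1b, which 6 of 16 had, beside 51.4% of kept genes. Without D1b it asks only for a D7 value above D1a, which 5 of 16 had, beside 51.2%. Limma called 0 probe sets in the 9 alternative fits, with 1 to 74 at an unadjusted p under 0.05. Without either 1-day array limma has no residual degrees of freedom, so those fits were not run, and the member counts against a single 1-day array are those in the report. No paired analysis was possible because the 7-day group has 1 array.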
